A study of Rattus norvegicus with 4 samples.

Results

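Laminin chains and non-integrin laminin receptors of the basement membrane were examined in rat insulin-secreting cells grown as a monolayer or inside a bioprinted gel. The set holds 9 genes named by symbol, the chains Lama3, Lama4, Lama5, Lamb1, Lamb2, Lamb3 and Lamc1 and the receptors Bcam and Dag1, out of 23360 gene symbols. Under these symbols 8 were found, and Lama3 was not analysed here. Of the 8, 6 had a mean of at least 1 TPM, a measure of transcript abundance corrected for length, and were tested, Lamb2 lay below that level, and Lama4 was listed at 0.

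All 4 samples were of a sub-line of INS-1, a rat insulinoma line. The sub-line carries a human insulin gene and was kept in Geneticin, and the cells were harvested on day 5 at passage 3. The 2D monolayer group held 2 standard cultures without a gel. The 3D bioprinted group held 2 cultures printed in GelXA LAMININK 411, a hydrogel that contains laminin. By the methods, the 3D cells were also extruded through a nozzle under pressure and cross-linked with ultraviolet light. The comparison of the cells' own transcripts thus covers printing, cross-linking and gel culture together, which cannot be told apart. Laminin protein supplied by the gel is not counted in these transcripts. The results describe a single tumour-derived line, and the labels call the cultures biological replicates.

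Polyadenylated RNA was sequenced, and TPM sum to 1000000 over all transcripts of a sample. The unit keeps no read counts, so no counting error could be computed for a value. All TPM below were summed over transcripts and divided by a scaling factor per sample, 1.01 and 0.960 for monolayer replicates 1 and 2, and 1.01 and 1.02 for 3D replicates 1 and 2. Fold changes are differences of log2(TPM + 1), which understate the change of genes with low values. Each gene was tested with limma, a linear model that shares its estimate of spread over all genes, and p-values were adjusted over all genes tested.

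Laminins are secreted trimers of an alpha, a beta and a gamma chain, and are named by the numbers of these chains. The beta and gamma chains pair inside the cell, and the alpha chain joins them before secretion. In the basement membrane the trimers form a sheet that cells bind through integrins, through dystroglycan and through the Lutheran glycoprotein BCAM. In mouse pancreatic islets much of the basement membrane is made by endothelial cells, and beta cells bind it through such receptors.

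Of the 6 genes tested, 4 (Lama5, Lamb1, Lamb3 and Bcam) rose in 3D culture at an adjusted p below 0.05 in limma and none fell. Of all 11960 genes tested, 38.0% were called, 18.5% higher and 19.5% lower in 3D culture. The balance moved with the scaling, since 55.5% of the called genes were higher without scaling and 41.3% with scaling factors from all genes. In 5 of the 6 members the samples of the groups did not overlap, as in 75.5% of all genes tested. The 2 genes not called were Lamc1, the gamma chain, and Dag1. In bulk RNA, a change in the share of cells that express a gene cannot be told apart from a change in RNA per cell.

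**Figure D1:**
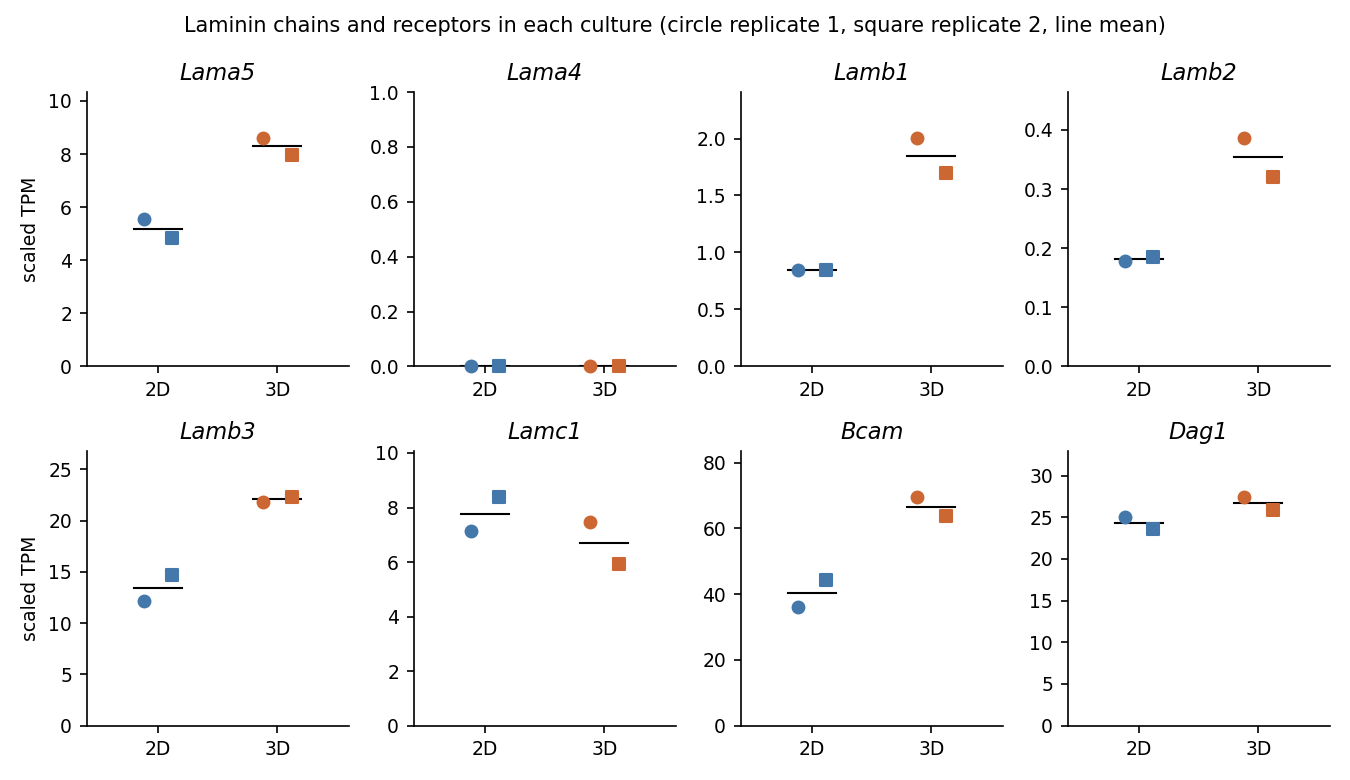
Scaled TPM (vertical axes, from 0, one scale per gene) of the 8 genes found, in 2D monolayer (blue) and 3D bioprinted (orange) cultures, with replicate 1 as a circle, replicate 2 as a square and the group mean as a line. Both 3D values of Lama5, Lamb1, Lamb2, Lamb3, Bcam and Dag1 lie above both monolayer values, those of Lamc1 overlap, and Lama4 is at 0.

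Lama5 encodes alpha 5, the alpha chain that is widespread in adult basement membranes. It was at 5.54 and 4.82 TPM in monolayer and at 8.62 and 7.96 TPM in 3D culture. Both 3D values lay above both monolayer values. The log2 fold change was 0.59 (standard error 0.096, 95% interval 0.35 to 0.83, limma adjusted p = 0.00997). Lama4, the alpha chain of the laminin-411 in the gel's name and a chain of endothelial basement membranes, was listed at 0 in all 4 samples. Lama1, the main alpha chain of the early embryo, lay between 0.0589 and 0.104 TPM, with overlapping groups. Lama2, the alpha chain of muscle and peripheral nerve, was at most 0.00790 TPM. Alpha 5 was thus the most abundant alpha chain among the 4 analysed.

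Lamb1 encodes beta 1, which takes part in many trimers. It was at 0.849 and 0.850 TPM in monolayer and at 2.01 and 1.69 TPM in 3D culture. Both monolayer values were under 1 TPM and both 3D values above it, so the gene passed the filter only through its 3D values. In a limma fit with no filter on low values, its log2 fold change was 0.62 and its adjusted p 0.0228 (0.0181 with the filter, and 0.00917 to 0.0972 over all its alternatives). Its log2 fold change was 1.03 when 0.1 was added before the logarithm instead of 1, and the ratio of the group means was 2.18.

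Lamb2, the beta 2 chain of the kidney filter and the neuromuscular junction, was at 0.178 and 0.185 TPM in monolayer and at 0.387 and 0.321 TPM in 3D culture. The groups did not overlap, at levels too low for the main test. Tested without a filter, its adjusted p was 0.0526 in limma.

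Lamb3 encodes beta 3, a chain known from the laminin that anchors epidermis. It was at 12.2 and 14.6 TPM in monolayer and at 21.8 and 22.3 TPM in 3D culture. Both 3D values were above both monolayer values, and beta 3 was the most abundant of the laminin chains analysed in each sample. The log2 fold change was 0.69 (standard error 0.097, 95% interval 0.44 to 0.93, limma adjusted p = 0.00730).

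Lamc1 encodes gamma 1, the gamma chain of most laminins. It was at 7.13 and 8.39 TPM in monolayer and at 7.46 and 5.92 TPM in 3D culture. The groups overlapped, since 3D replicate 1 lay between the monolayer values. The log2 fold change was -0.19 (95% interval -0.52 to 0.13, limma adjusted p = 0.282). Of its 3 transcripts, ENSRNOT00000003605.7 carried 70.5% of the summed level. That transcript was at 5.39 and 4.36 TPM in monolayer and at 5.50 and 5.12 TPM in 3D culture. Taken alone it gave a log2 fold change of 0.11 (limma adjusted p = 0.496, where the gene over all its alternatives, this one included, ran from 0.184 to 0.839), so the sign of the small difference rests on the minor transcripts. The transcript ENSRNOT00000092288.1 was listed at 0 in 3D replicate 2 and ENSRNOT00000092521.1 in monolayer replicate 1. Lamc3, a gamma chain of the brain and retina, was at most 0.0158 TPM.

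**Figure D2:**
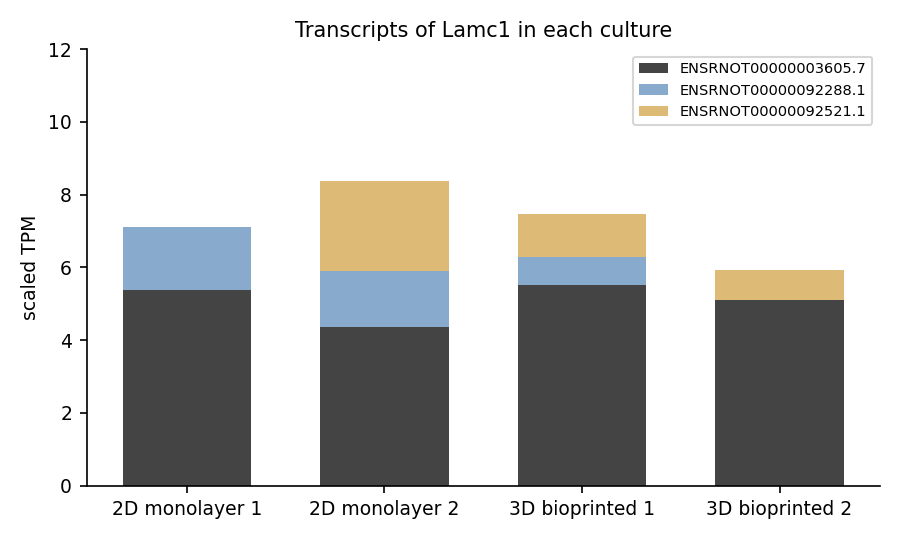
Scaled TPM (vertical axis, from 0) of the 3 transcripts of Lamc1 in each culture, stacked to the gene's sum. The transcript ENSRNOT00000003605.7 (dark) lies between 4.36 and 5.50 TPM, and each of the other 2 is at 0 in 1 culture.

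The calls rested on both 3D cultures. Without 3D replicate 1 none of the 4 genes passed (adjusted p from 0.0727 for Lamb3 to 0.0972 for Lamb1 in limma), and 136 of all genes were called in place of 4542 (3819 in place of 6056 at an unadjusted p below 0.05). Without 3D replicate 2 none passed either (adjusted p from 0.05001 for Bcam to 0.0600 for Lamb1 in limma), with 1037 genes called in the whole table and 4267 at an unadjusted p below 0.05. Without monolayer replicate 2, Lamb1 had an adjusted p of 0.0546 in limma. Over the 4 fits that omit a culture, log2 fold changes ran from 0.50 to 0.67 for Lama5 and from 0.54 to 0.70 for Lamb1. They ran from 0.56 to 0.81 for Lamb3 and from 0.57 to 0.86 for Bcam. The groups did not overlap for these 4 genes, so the positive sign in these fits was fixed beforehand. The smallest two-sided p that exact permutation of 2 and 2 samples allows for any gene is 0.33.

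**Figure D3:**
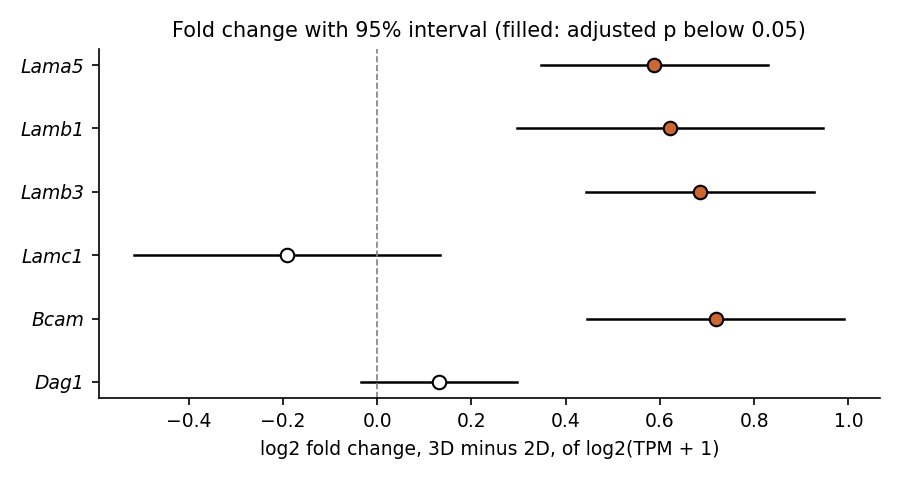
Log2 fold change (horizontal axis, 3D minus 2D on log2(TPM + 1)) of the 6 tested genes with its 95% interval from limma as a line. Filled points have an adjusted p below 0.05, and the intervals of Lamc1 and Dag1 include 0.

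Together the laminin chains analysed here summed to 26.0 and 29.0 TPM in monolayer and to 40.4 and 38.3 TPM in 3D culture. Lamb3 took 46.8% and 50.6% of this sum in monolayer and 54.0% and 58.3% in 3D culture. The share of Lamc1 was 27.4% and 28.9% in monolayer and 18.5% and 15.5% in 3D culture. For both chains the shares of the groups did not overlap. With the most abundant transcript of Lamc1 alone, the share of Lamb3 was 50.2% and 58.7% in monolayer and 56.8% and 59.5% in 3D culture, so those groups overlapped, while the shares of Lamc1 did not. Gamma 1 was 8.39 and 9.87 times as abundant as beta 1 in monolayer, and 3.72 and 3.50 times in 3D culture. With the most abundant transcript of Lamc1 alone, these ratios were 6.35 and 5.13 in monolayer and 2.74 and 3.02 in 3D culture. The excess of gamma 1 transcript over beta 1 transcript was thus smaller in both 3D samples. Alpha 5 exceeded beta 1 by factors of 6.53 and 5.67 in monolayer and of 4.29 and 4.70 in 3D culture.

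Of 13 trimers considered, which do not cover all known ones, 1 had every chain at a mean of at least 1 TPM over the 4 samples. It was laminin-511, of alpha 5, beta 1 and gamma 1. Beta 1 was its least abundant chain, so its limiting level was that of Lamb1, under 1 TPM in both monolayer samples and above it in both 3D samples. Laminin-521, in which beta 2 takes the place of beta 1, was limited by Lamb2, at 0.178 to 0.387 TPM. Laminin-411 and laminin-421 were limited by alpha 4, listed at 0 in all 4 samples. No trimer with beta 3, the most abundant chain analysed, was assessed. Laminin-311 could not be assessed without Lama3, and 11 trimers had a chain with a mean below 1 TPM. By transcript levels, laminin-511 was the trimer, among those considered, that the cells of the 3D cultures could assemble with every chain at 1 TPM or more. In the monolayer samples no trimer considered reached that level, and laminin-511 was limited by beta 1 at 0.849 and 0.850 TPM. Laminin-521 could form only at the lower level of beta 2 in either group. Protein and secretion were not measured.

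**Figure D4:**
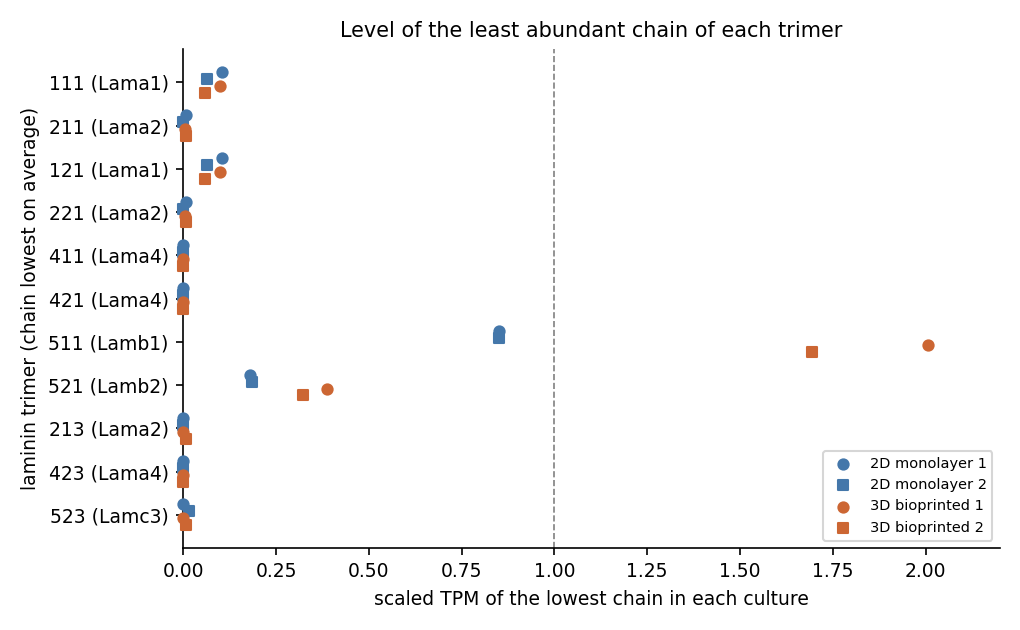
Scaled TPM (horizontal axis) of the least abundant chain in each culture for the 11 considered trimers whose chains were all analysed, with the chain that is lowest on average in brackets and a dashed line at 1 TPM. Both 3D values of laminin-511, 2.01 and 1.69 TPM, lie beyond the line, and every other trimer stays below it.

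Bcam encodes the Lutheran glycoprotein, a receptor of the immunoglobulin family that binds the alpha 5 chain. It was at 36.1 and 44.4 TPM in monolayer and at 69.5 and 63.6 TPM in 3D culture. Both 3D values lay above both monolayer values. The log2 fold change was 0.72 (standard error 0.11, 95% interval 0.45 to 0.99, limma adjusted p = 0.00854). Its level was 6.51 and 9.21 times that of Lama5 in monolayer and 8.07 and 8.0 times in 3D culture, so the ratio of receptor to ligand overlapped between the groups.

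Dag1 encodes dystroglycan, which binds the globular domains of laminin alpha chains outside the cell and dystrophin or utrophin inside. It was at 25.0 and 23.6 TPM in monolayer and at 27.4 and 25.9 TPM in 3D culture. The groups did not overlap, but the gap between them was smaller than the spread within either. The log2 fold change was 0.13 (95% interval -0.03 to 0.30, limma adjusted p = 0.166). Bcam was 1.44 and 1.88 times as abundant as Dag1 in monolayer, and 2.53 and 2.45 times in 3D culture.

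The 250 bases upstream of the transcript start are shown for the 4 genes that rose, as RefSeq gives them in GRCr8, to let their base composition be compared. Of the 9 genes 7 were matched, not Lamb2 and Dag1. Capitals mark GGGCGG, the GC box, on either strand. The positions are chr3:187695975-187696224 on the minus strand for Lama5, chr6:53562846-53563095 on the plus strand for Lamb1, chr13:107362303-107362552 on the plus strand for Lamb3 and chr1:88557359-88557608 on the minus strand for Bcam.
Lama5: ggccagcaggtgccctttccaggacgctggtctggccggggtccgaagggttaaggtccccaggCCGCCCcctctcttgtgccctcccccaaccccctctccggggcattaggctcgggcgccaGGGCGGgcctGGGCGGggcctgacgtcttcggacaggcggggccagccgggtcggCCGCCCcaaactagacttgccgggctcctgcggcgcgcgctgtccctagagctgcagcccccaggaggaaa
Lamb1: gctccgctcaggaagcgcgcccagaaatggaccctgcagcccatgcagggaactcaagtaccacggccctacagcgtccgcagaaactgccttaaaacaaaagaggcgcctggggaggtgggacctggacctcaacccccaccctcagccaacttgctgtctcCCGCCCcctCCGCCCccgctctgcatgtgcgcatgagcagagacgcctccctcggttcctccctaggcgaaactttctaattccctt
Lamb3: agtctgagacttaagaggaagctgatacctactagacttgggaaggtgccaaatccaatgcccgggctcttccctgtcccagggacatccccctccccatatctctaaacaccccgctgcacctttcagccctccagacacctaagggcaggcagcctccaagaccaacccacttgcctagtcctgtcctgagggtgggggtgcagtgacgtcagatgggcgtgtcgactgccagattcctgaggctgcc
Bcam: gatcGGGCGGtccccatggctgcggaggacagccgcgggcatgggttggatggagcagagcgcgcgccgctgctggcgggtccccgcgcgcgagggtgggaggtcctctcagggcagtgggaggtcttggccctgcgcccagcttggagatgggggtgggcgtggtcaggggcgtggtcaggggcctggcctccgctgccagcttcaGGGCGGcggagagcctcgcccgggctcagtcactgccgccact

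The GC box occurred 4 times in the window of Lama5, 2 times in that of Lamb1 and 2 times in that of Bcam, and 30.5% of 33469 rat promoters of this length hold it. The window of Lamb3 held none, and that of Lamc1, a gene not called, held 5. G and C made up 72.8% of the bases for Lama5, 74.0% for Bcam, 62.0% for Lamb1 and 58.4% for Lamb3, against a median of 51.2%. Of the other motifs searched on both strands, TGANTCA (AP-1), ACGTG (hypoxia response core), CACGTG (E-box, which contains ACGTG) and GGAATG (TEAD), none occurred in these 4 windows. They occur in 6.34%, 16.6%, 5.59% and 12.1% of all promoters.

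Basement membrane partners join laminin to collagen IV and heparan sulfate. Of 23 such genes in the files, 5 were tested, and 2 rose and none fell in 3D culture. The share called was 40.0%, near the 38.0% of all genes tested, and the median log2 fold change was 0.36 beside -0.0031. With no filter on low values 18 of the genes were tested, 5 rose and none fell, or 27.8%, beside 3588 of all 16749 genes. The median was then 0.079 beside 0.015. Agrn, a heparan sulfate proteoglycan that binds both laminin and dystroglycan, was at 4.09 and 3.85 TPM in monolayer and at 6.33 and 6.03 TPM in 3D culture (log2 fold change 0.53, limma adjusted p = 0.00995). Smoc1, a calcium-binding matrix protein and the most abundant of the list, was at 19.0 and 18.2 TPM in monolayer and at 22.8 and 23.0 TPM in 3D culture (limma adjusted p = 0.0197). For both genes the groups did not overlap. For Ntn1, a secreted netrin related to laminin, both 3D values (3.89 and 4.91 TPM) were above both monolayer values (2.99 and 3.25 TPM), with a limma adjusted p of 0.0592. Ntn1 passed in 2 of 13 alternatives, the replicate block and robust empirical Bayes (0.0364 to 0.2497 over all of them), and the list then held 3 genes that rose.

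The linkers between laminin and the collagen network were scarce. Nid1, which encodes nidogen 1 and binds the gamma 1 chain, was at 0.00652 TPM in monolayer replicate 2 and listed at 0 elsewhere. Nid2 lay between 0.122 and 0.272 TPM. Col4a1 and Col4a2, the main chains of collagen IV, stayed at or below 0.0396 TPM. Hspg2, the gene of perlecan, was matched only through a synonym, to the entry AABR07073181.1. That entry was at 0.0296 and 0.0485 TPM in monolayer and at 0.272 and 0.206 TPM in 3D culture, with no overlap.

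Other laminin-binding receptors did not move in one direction. Of 12 genes in the files 8 were tested, 1 rose and 1 fell, a share called of 25.0% beside 38.0% of all genes tested. The median log2 fold change was -0.01, a sign that turned to 0.02 without scaling between samples. The count lower in 3D culture moved with the scaling, from 0 without scaling to 3 with factors from all genes. Itgb1, the beta subunit of most laminin-binding integrins, was at 157 and 159 TPM in monolayer and at 167 and 166 TPM in 3D culture (log2 fold change 0.08, limma adjusted p = 0.272). Its partner Itga3 lay between 25.2 and 27.0 TPM and Itga6 between 3.07 and 3.36 TPM, neither called. Itgb4, the other partner of alpha 6, was listed at 0 in monolayer and was at most 0.0128 TPM in 3D culture. The transcripts thus covered the integrins alpha 3 beta 1 and alpha 6 beta 1.

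Sdc4, a heparan sulfate syndecan, rose from 7.84 and 8.16 TPM to 10.4 and 10.5 TPM (log2 fold change 0.35, limma adjusted p = 0.0171). Cd151, a tetraspanin that associates with laminin-binding integrins, fell from 126 and 132 TPM to 97.2 and 112 TPM (log2 fold change -0.30, limma adjusted p = 0.0350). It passed in 7 of 14 alternatives, and without scaling between samples its adjusted p was 0.0589 in limma (0.0143 to 0.188 over all of them). Rpsa, a ribosomal protein also known as a laminin receptor and the most abundant of the list, was at 647 and 666 TPM in monolayer and at 589 and 537 TPM in 3D culture (limma adjusted p = 0.0507). With scaling factors from all genes its adjusted p was 0.0309 in limma (0.0309 to 0.272 over all its alternatives).

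Dystroglycan binds laminin only once it carries a sugar chain called matriglycan. All 18 genes of this pathway were tested, 3 rose and 2 fell, a share called of 27.8% beside 38.0% of all genes tested. The median log2 fold change was 0.03, a sign that turned to -0.01 with scaling factors from all genes. Large2, which extends matriglycan, was at 12.7 and 14.1 TPM in monolayer and at 17.3 and 17.9 TPM in 3D culture (log2 fold change 0.37, limma adjusted p = 0.0169). B4gat1, which primes the chain for that extension, was at 23.1 and 25.0 TPM in monolayer and at 17.0 and 18.1 TPM in 3D culture (log2 fold change -0.43, limma adjusted p = 0.0101). These neighbouring steps moved in opposite directions. Dpm3, a subunit of the enzyme that makes the mannose donor and the most abundant of the list, was at 160 and 172 TPM in monolayer and at 135 and 140 TPM in 3D culture (log2 fold change -0.27, limma adjusted p = 0.0221). B3galnt2, which extends the sugar that carries matriglycan, passed narrowly (log2 fold change 0.30, limma adjusted p = 0.0474). It passed in 5 of 14 alternatives (0.0439 to 0.232 over all of them), and its log2 fold change was 0.18 with its most abundant transcript alone. Dpm1 passed as narrowly (log2 fold change 0.21, limma adjusted p = 0.0486) and in 4 of 14 alternatives (0.0437 to 0.253 over all of them).

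In the complex that ties dystroglycan to the cytoskeleton, 6 of 13 genes were tested, 3 rose and 1 fell. The share called was 66.7% beside 38.0% of all genes tested, and the median log2 fold change was 0.29. With no filter on low values 12 of the genes were tested, 2 rose and 1 fell, or 25.0%, beside 3588 of all 16749 genes, and the median was 0.12. With the most abundant transcript of each gene alone, 2 of the 4 calls made with the filter were kept, 1 higher and 1 lower. Sgcb, the beta sarcoglycan and the most abundant of the list, was at 56.6 and 53.2 TPM in monolayer and at 71.8 and 70.7 TPM in 3D culture (log2 fold change 0.37, limma adjusted p = 0.00922). Its most abundant transcript alone gave 0.20 (limma adjusted p = 0.0562, 0.00539 to 0.0898 over all its alternatives). Utrn, the gene of utrophin, was at 10.1 and 8.65 TPM in monolayer and at 13.2 and 12.9 TPM in 3D culture (log2 fold change 0.44, limma adjusted p = 0.0164). Its most abundant transcript alone gave 0.30 (limma adjusted p = 0.0552, 0.00773 to 0.1201 over all its alternatives). Utrophin exceeded Dmd, the gene of dystrophin, which lay between 0.663 and 1.15 TPM. Of the dystrobrevins, Dtnb fell (log2 fold change -0.37, limma adjusted p = 0.0122) and Dtna rose (0.48, limma adjusted p = 0.0275). Dtna did not pass with no filter on low values (0.0558, and 0.0185 to 0.138 over all its alternatives).

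Among 12 proteases that act on laminin or its receptors, 3 were tested and 1 rose, a share called of 33.3% beside 38.0% of all genes tested. Adam10, a membrane protease that sheds cell surface proteins, was at 18.5 and 16.6 TPM in monolayer and at 23.3 and 26.6 TPM in 3D culture (log2 fold change 0.49, limma adjusted p = 0.0137). Bmp1, which processes laminin chains, lay between 17.3 and 22.5 TPM with overlapping groups, and its relative Tll1 between 4.22 and 5.18 TPM. Mmp3, Mmp7 and Plau were listed at 0 in every sample. Over the 7 laminin-related lists, 18 of 46 tested genes were called, or 39.1%, near the 38.0% of all genes tested. Of these 18, 15 were called without monolayer replicate 1, 11 without monolayer replicate 2, and 0 without 3D replicate 1 or without 3D replicate 2 in limma. None of the 18 changed sign in these fits, which was fixed beforehand because the groups did not overlap for any of them.

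**Figure D5:**
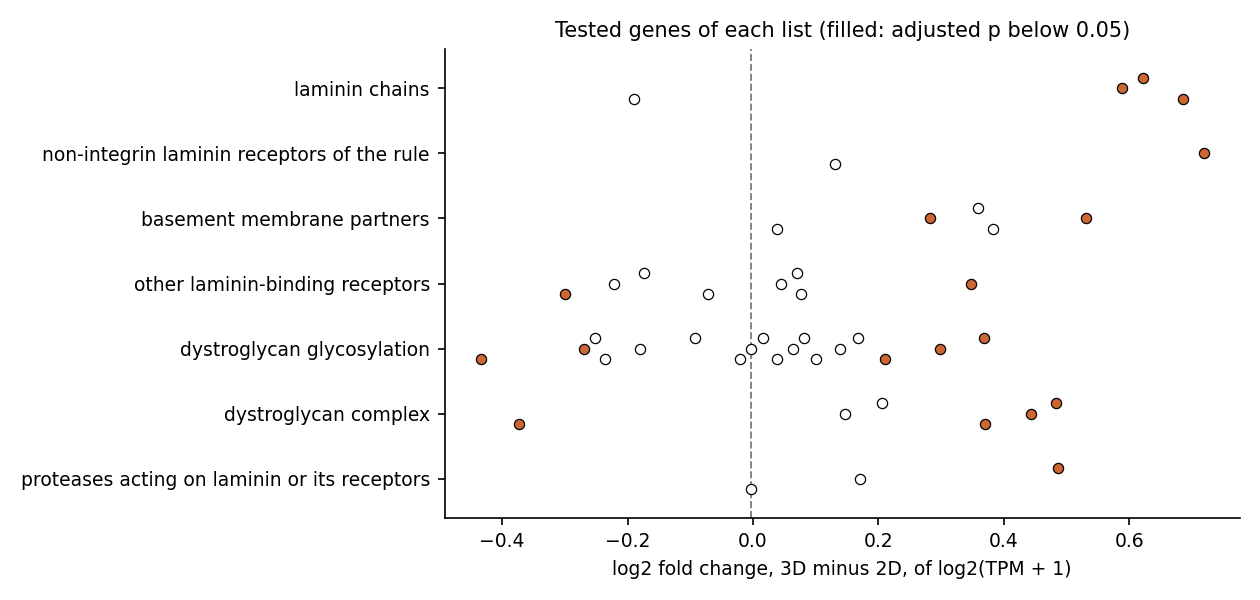
Log2 fold change (horizontal axis, 3D minus 2D on log2(TPM + 1)) of each tested gene of the 7 laminin-related lists, with filled points at an adjusted p below 0.05 and a dashed line at the median of all genes tested. The laminin chains hold 3 called genes to the right and Lamc1 to the left.

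The tested genes outside the lists with profiles nearest to that of Lama5 over the 4 samples were Ino80d, Kmt2c and Ankrd44. Their root mean square differences on the centred log2 scale were 0.0073, 0.010 and 0.011. For Bcam they were AABR07039778.1, Cspg5 and Gimap9, at 0.018, 0.020 and 0.023. The log2 fold changes of these 6 genes lay between 0.58 and 0.73, near those of Lama5 and Bcam because of how the genes were selected.

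Markers were used to check the labelled cell type. Of 12 beta-cell markers 11 were found and tested, and they summed to 146168 and 167290 TPM in monolayer and to 156717 and 166699 TPM in 3D culture, led by Ins1. In this list Slc2a2, the glucose transporter, rose (limma adjusted p = 0.00746) and Ins2, an insulin gene, fell (limma adjusted p = 0.00946). Neither passed without 3D replicate 1 (0.0758 and 0.107) or without 3D replicate 2 (0.0654 and 0.0737). The 9 endothelial markers found summed to 17.2 and 19.5 TPM in monolayer and to 18.2 and 20.5 TPM in 3D culture, nearly all from Esam, with Cdh5, Tie1 and Emcn listed at 0. The 9 fibroblast and stellate markers summed to 208 and 223 TPM in monolayer and to 179 and 206 TPM in 3D culture, led by Thy1, with Dcn, Lum, Pdgfrb and Fap listed at 0. None of the tested genes of the endothelial or fibroblast lists was called.

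The 10 duct and keratinocyte-type markers summed to 121 and 135 TPM in monolayer and to 150 and 139 TPM in 3D culture, led by Epcam. Krt5, Krt14, Spp1 and Cftr were listed at 0, and the 2 genes tested, Epcam and Krt7, were not called. Below the filter, Muc1 was at 0.347 and 0.398 TPM in monolayer and at 0.558 and 0.718 TPM in 3D culture. Krt19 was also higher in both 3D samples, at 0.0749 and 0.127 TPM against 0.0273 and 0 TPM. Sox9 was lower in both, at 0.696 and 0.635 TPM against 0.723 and 0.774 TPM. The part of these markers in the level of Lamb3 was not tested. Among Schwann cell markers the directions differed. Pmp22, a myelin protein, was at 2.2 and 2.18 TPM in monolayer and at 1.28 and 1.36 TPM in 3D culture, and it fell (limma adjusted p = 0.0279). With any 1 culture left out its adjusted p in limma lay between 0.0630 and 0.1203. The others given here were below the filter. Ngfr, a neurotrophin receptor, was higher in both 3D samples, at 0.622 and 0.659 TPM against 0.278 and 0.166 TPM in monolayer, and had an adjusted p of 0.0256 in limma with no filter. S100b, a calcium-binding protein, was also higher in both, at 0.138 and 0.204 TPM against 0.100 and 0.0288 TPM. Sox10 was at 0.0153 TPM in 3D replicate 1 and listed at 0 elsewhere, and Erbb3 was at most 0.0448 TPM, with overlapping groups.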

How the data were processed

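Messenger RNA of 4 cultures of an INS-1 sub-line, 2 per group, was analysed, with groups and replicate numbers from the sample labels. By the submitters' processing notes and the methods, the authors checked reads with FastQC 0.11.8 and ran Salmon 1.2 on a reference named rn4, to which human insulin had been added, and they deposited TPM for each transcript. The DESeq2 test of the methods needs counts and was not repeated. TPM were summed per gene symbol, and genes with a mean of at least 1 TPM were kept. Scaling factors came from these genes as an unweighted mean of M values, after 30% of the M values and 5% of the A values had been cut from either end. Values of log2(TPM + 1) were tested with limma 3.58.1 (empirical Bayes with trend) in R 4.3.3, with Benjamini-Hochberg adjustment. The genes entering the scaling factors had not been specified in the design. Factors from all genes were computed first, and the order described for these data earlier was then adopted with both results seen, so the former is given as an alternative chosen after seeing the data. List genes are named mainly by the 3 smallest p-values, the highest level and the partners a trimer or receptor needs. Some others are named because they were called, were listed at 0 or did not overlap between the groups. Members and lists were chosen with earlier results of these data known. TPM keep no read counts, so no counting error is given. The steps were tested on simulated TPM. These had less spread between replicates and fewer changed genes than were called here, so error rates for these data were not measured. Symbols were matched through RefSeq synonyms where needed, and promoter sequences come from RefSeq (GRCr8). Alternatives covered scaling, filter, pseudocount, empirical Bayes options, replicate block, threshold, transcripts and each culture left out. Protein sequences were not used here.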

Additional observations from a re-analysis of the deposited data

How the results depend on the processing

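The count of genes with an adjusted p below 0.05 in limma was 4542, and it lay between 3588 and 4817 over the other scalings, filters, pseudocount and empirical Bayes options. At an adjusted p below 0.01 it was 1418. With each culture left out in turn it ran from 136 to 4507, with the lone remaining sample of a group assumed to vary like the other group. The lowest count, 136, was without 3D bioprinted replicate 1, and 1037 were called without 3D bioprinted replicate 2. All the fits with a culture left out held the same number of samples, and the cause of the differences between their counts was not tested. With a replicate block 4816 genes were called. Same-numbered cultures did not deviate together (correlation across genes -0.0060, 2 pairs), so the numbers were not treated as a pairing. Scaling factors from all genes, an alternative chosen after seeing the data, gave 4732.

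Lama5, Lamb3 and Bcam each passed the threshold in 12 of 14 alternatives and Lamb1 in 10 of 13. The losses came from leaving out a culture. Lamc1 and Dag1 passed in 0 of 14. The log2 fold change of Lamc1 changed from -0.19 to 0.11 with its most abundant transcript alone, which leaves out the minor transcripts by construction. The count of trimers with every chain at a mean of at least 1 TPM was also 1 in the alternatives tried for it. These were no scaling, scaling factors from all genes and the most abundant transcript alone. The 1 TPM level and the mean over both groups were not varied, so the count cannot show how it depends on them. Lamb1, the lowest chain of laminin-511, was at 0.849 and 0.850 TPM in monolayer and at 2.01 and 1.69 TPM in 3D culture. TPM keep no read counts, so the counting error of values below 1 TPM could not be stated.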

Other observations

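Some basement membrane genes below the filter did not overlap between the groups, and they are given here because of their values, chosen after these were seen. Ntn4, a laminin-related netrin that binds the laminin gamma 1 chain, was at 0.212 and 0.295 TPM in monolayer and at 0.587 and 0.561 TPM in 3D culture. Col18a1, the collagen XVIII chain that carries endostatin, was at 0.0976 and 0.127 TPM in monolayer and at 0.268 and 0.265 TPM in 3D culture. For each of these, both 3D values lay above both monolayer values. In a limma fit with no filter on low values (16749 genes), the adjusted p was 0.0292 for Ntn4 and 0.0415 for Col18a1. Of the 18 basement membrane partners tested in that fit, 5 were called, or 27.8%, beside 3588 of all 16749 genes. Hspg2, the perlecan gene matched through a synonym, was at 0.0296 and 0.0485 TPM in monolayer and at 0.272 and 0.206 TPM in 3D culture. Its adjusted p was 0.0316 in that limma fit. Nid2, the gene of nidogen 2, was at 0.122 and 0.181 TPM in monolayer and at 0.272 and 0.259 TPM in 3D culture, and did not pass (adjusted p of 0.105 in limma).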
